A study of Mus musculus with 13 samples.

Results

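The genes described here encode the constitutive proteasome and its helpers. They were taken as every row of the 6 deposited gene tables whose symbol begins with Psma, Psmb, Psmc, Psmd, Psme, Psmf or Psmg followed by a digit, without the immunoproteasome genes Psmb8, Psmb9 and Psmb10, which gave 47 genes of the 24532 listed. The tables held read counts and FPKM (reads scaled by transcript length and library size) of 13 bulk RNA-seq libraries from C57BL/6 bone marrow cultures of mice 8 to 14 weeks old, grown for 8 to 10 days and then sorted by FACS. Cultures with 10 µg/ml FLT3L (FL-BM) gave CD115+ CX3CR1+ cells of the cDC2 gate (FL non-DCs), CD115- CX3CR1- CD83- immature FL-cDC2s, CD115- CX3CR1- CD83+ mature FL-cDC2s, and the immature (CD83-) and mature (CD83+) FL-cDC1s with the same CD115- CX3CR1- phenotype. Cultures with 0.5 µg/ml GM-CSF (GM-BM) gave GM-DCs and GM-Macs, separated by CD11b and MHC class II. RNA was extracted 2 times for each subset except mature FL-cDC1s, which had 1 library, and whether the 2 extractions used different cultures or mice is not stated. The p-values below therefore rest on the spread between libraries, which may be technical. CD83, a surface marker of mature dendritic cells, separated mature from immature FL-cDCs.

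The proteasome degrades ubiquitin-tagged proteins. Its 20S core is a barrel of outer alpha rings and inner beta rings, and Psmb5, Psmb6 and Psmb7 carry the constitutive catalytic sites. The 19S particle caps the barrel: ATPases of its base unfold the substrate, and its lid removes ubiquitin. The 11S activator of Psme1 and Psme2, also called PA28, is an alternative cap that interferon gamma induces in many cells, and it shapes the peptides made for MHC class I. Chaperones build the barrel (Psmg1 to Psmg4) and the base (Psmd5, Psmd9, Psmd10). In dendritic cells the immunoproteasome genes replace the constitutive catalytic subunits in part of the particles.

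The libraries held 46042095 to 71330242 reads assigned to genes, so that 3 reads corresponded to at most 0.0652 CPM. The sorted subsets were compared with lists of marker genes, which separated some of them and not others. Of the listed genes, Cd83, Cd24a and Sirpa encode surface proteins on which the study gated cells. The sort therefore fixed part of the separation by their lists. The summed FPKM of 5 genes of mature dendritic cells (Cd83, Ccr7, Fscn1, Ccl22, Relb) was 10680 to 18464 in GM-DCs and both mature FL-cDC subsets and 149 to 737 in the other subsets. The sum of 6 macrophage genes was 42030 to 75583 in FL non-DCs and GM-Macs and 16.2 to 4115 elsewhere, and that of 2 cDC genes (Flt3, Zbtb46) was 67.9 to 276 in the DC subsets and 1.92 to 7.54 in FL non-DCs and GM-Macs. The 4 cDC1 genes (Clec9a, Xcr1, Irf8, Cd24a) summed to 926 to 1792 FPKM in FL-cDC1s but also to 919 and 1022 in GM-DCs and 428 and 467 in mature FL-cDC2s, so this list did not set FL-cDC1s apart, whereas its member Xcr1 was 44.6 to 112 FPKM in FL-cDC1s and at most 0.875 FPKM in the others. The 3 cDC2 genes (Cd209a, Irf4, Sirpa) went against the label, with 607 and 646 FPKM in FL non-DCs and 443 and 202 FPKM in GM-Macs, beside 385 and 382 FPKM for the immature and 70.4 and 51.9 FPKM for the mature FL-cDC2s, and Cd209a alone was highest in immature FL-cDC2s (146 and 162 FPKM) and 0.206 to 0.283 FPKM in mature ones. Of the lists for other cell types, 3 B cell genes summed to 19.2 to 39.9 FPKM in FL non-DCs and immature FL-cDC2s, 6.54 to 24.5 in the other FL-BM subsets and 1.14 to 3.69 in GM-BM subsets. The 2 pDC genes summed to 116 and 144 FPKM in GM-DCs and 26.3 to 93.7 elsewhere, with Siglech listed at 0 in the GM-BM libraries. Neutrophil genes summed to at most 10.4 FPKM, T cell genes to at most 1.05 and mast cell and basophil genes to at most 0.948, and erythroid genes were listed at 0 in all libraries. The part of such cells in the results was not tested. Libraries of 1 subset differed along transcript length. In replicate 2 of immature FL-cDC1s, 491 transcripts under 1000 bases had a median log2 ratio of 1.31 to replicate 1, and 3886 transcripts of at least 3000 bases had one of -0.47. The corresponding medians for GM-Macs were 0.97 and -0.43, and for GM-DCs -0.07 and -0.02. They were -0.53 and 0.13 for FL non-DCs, -0.46 and 0.12 for immature FL-cDC2s, and 0.51 and -0.24 for mature FL-cDC2s. The replicates of immature and mature FL-cDC2s thus differed along length in opposite directions. The 14 expressed 20S subunits have transcripts with a median length of 998 bases, whereas Psmd1 and Psmd2 of the 19S base have 3305 and 3005 bases, so the medians of both length classes are given beside each comparison of a pair of subsets.

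Nearly all proteasome genes were expressed in all subsets. Of the 47 genes, 36 had at least 10 FPKM in every library and 44 had at least 1 FPKM. Psmb11, the beta subunit of the thymus-specific proteasome, was under 1 FPKM throughout and was the only gene that did not pass the filter on low counts, leaving 46 tested. Psma8, the alpha subunit of the testis proteasome, was 0.0731 to 1.86 FPKM. The median level of the 14 expressed 20S subunits ranged from 56.5 FPKM in FL non-DC replicate 2 to 270 FPKM in immature FL-cDC1 replicate 2, and that of the 6 ATPases from 56.7 to 120 FPKM. Among genes with a mean of at least 10 FPKM, the highest subset mean was at most 3 times the lowest for 24 of 41 proteasome genes (58.5%) and for 35.1% of all 5629 such genes. In the test for any difference among the 7 subsets, 34 of the 46 genes were called (73.9%) beside 68.4% of all genes tested. The 12 that were not called included 6 of the 8 lid subunits. The genes with the widest range of subset means were Psme2b, Psma8, Psmc3ip, Psmg4, Psme2, Psmg3, Psmb7, Psme1 and Psmb3, each more than 5-fold.

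**Figure D1:**
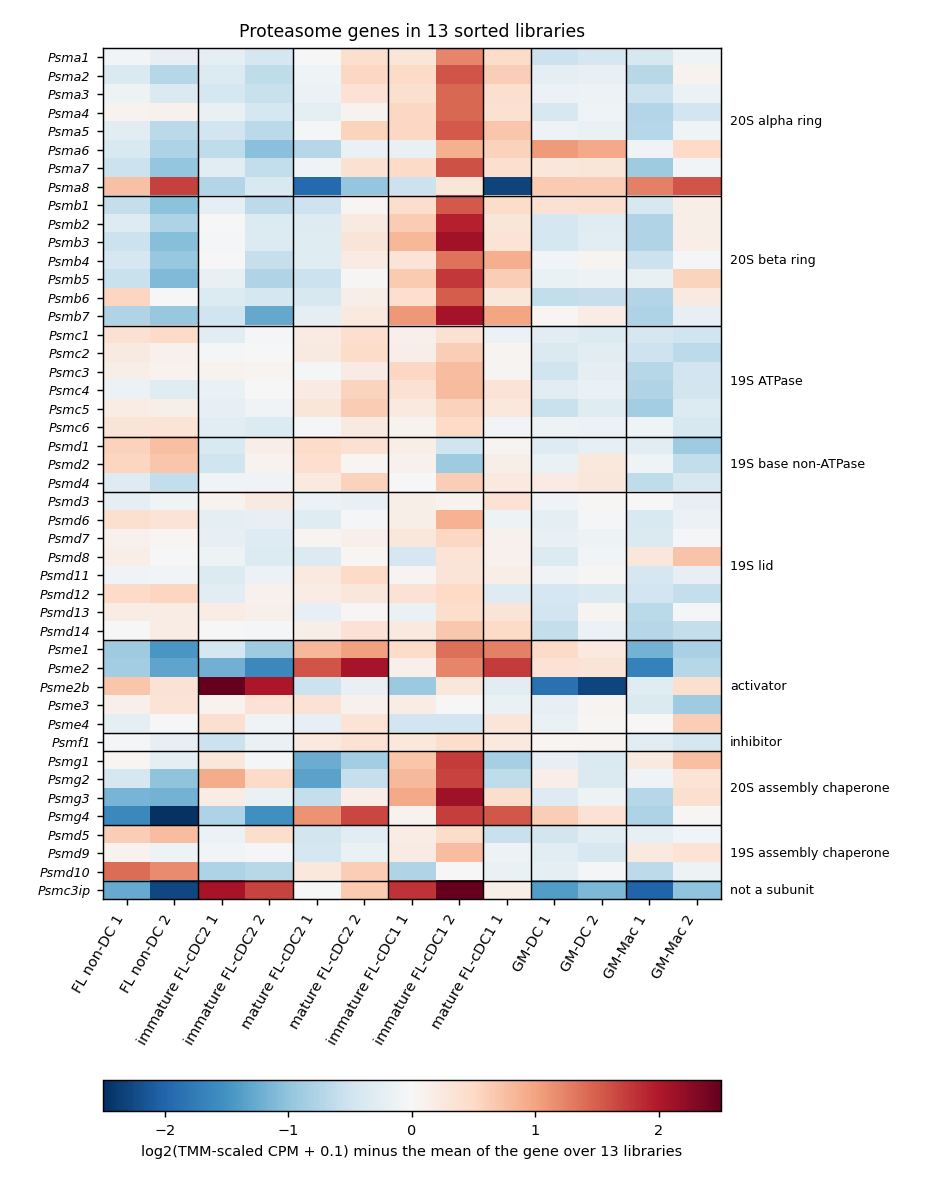
Level of 46 proteasome genes (rows, grouped by role) in the 13 libraries (columns), as log2(TMM-scaled CPM + 0.1) minus the mean of the gene over the libraries. Psme2 is reddest in mature FL-cDC2s and the mature FL-cDC1 library, Psme1 is red in mature FL-cDC2s, FL-cDC1s and GM-DCs, Psme2b is red in immature FL-cDC2s, Psmd10 is red in FL non-DCs, and the 20S genes are red in immature FL-cDC1 replicate 2.

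The catalytic subunits were examined first. Psmb5, the chymotrypsin-like subunit, was 54.3 and 36.4 FPKM in FL non-DCs, 111 and 69.7 in immature FL-cDC2s, 64.5 and 94.7 among mature FL-cDC2s, 153 and 274 in immature FL-cDC1s, 142 in the mature FL-cDC1 library, 93.9 and 93.6 in GM-DCs, and 80.9 and 124 in GM-Macs. FL non-DCs were lowest and immature FL-cDC1s highest, and the libraries of immature and mature FL-cDC2s overlapped. Psmb6, the caspase-like subunit, was 159 and 108 FPKM in FL non-DCs, 137 and 119 in immature FL-cDC2s, 97.5 and 142 among mature FL-cDC2s, 182 and 321 in immature FL-cDC1s, 158 in the mature FL-cDC1 library, 95.2 and 94.3 in GM-DCs, and 76.98 and 136 in GM-Macs. Apart from immature FL-cDC1s, its libraries covered a common range. Psmb7, the trypsin-like subunit, was 29.3 and 25.3 FPKM in FL non-DCs, 55.1 and 29.7 in immature FL-cDC2s, 49.7 and 68.2 among mature FL-cDC2s, 129 and 214 in immature FL-cDC1s, 115 in the mature FL-cDC1 library, 68.1 and 71.8 in GM-DCs, and 33.6 and 45.5 in GM-Macs. Both FL-cDC1 subsets stood above all other libraries. Within a library the transcripts of these subunits were not in a fixed ratio, since Psmb6 was 2.04 and 1.91 times the 20S median in FL non-DCs and 0.877 to 1.305 times in the others. The immunoproteasome partner Psmb8 exceeded Psmb5 in every library, by 2.32 and 2.59 times in GM-Macs and by 14.8 and 14.9 times in mature FL-cDC2s.

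Maturation of FL-cDC2s was then compared, with mature FL-cDC2s set against immature ones. The 11S activator rose most, one chaperone of the 20S core rose while 2 others fell, and every core and cap subunit that passed the test changed by less than 2-fold. At an adjusted p under 0.05 (edgeR quasi-likelihood, Benjamini-Hochberg), 11 of the 46 genes were higher (23.9%) beside 22.5% of all 13242 genes tested, and 4 were lower (8.70%) beside 24% of all genes. The median log2 fold change was 0.34 over the proteasome genes and 0.00 over all genes. With library size alone as the scaling, in which the median of all genes was -0.41, 4 were higher (15.4% of all genes) and 7 lower (33.8%). By DESeq2 20 were higher, and of all genes 6530 were called in either direction, beside 6152 by edgeR. Transcripts under 1000 bases had a median log2 difference of -0.10 between these subsets and those of at least 3000 bases one of 0.03. With a length correction, an offset for transcript length chosen after seeing the data, 21 were higher. It also raised the number of all genes called in either direction to 6828. Without immature FL-cDC2 replicate 1 or mature FL-cDC2 replicate 2 fewer genes were higher, and without mature FL-cDC2 replicate 1 fewer were lower. Fewer of all genes were called in each of these fits. Psme1, Psme2, Psmd10 and Psmg4 (higher) and Psme2b and Psmg2 (lower) passed under every alternative tried, and Psmg1 under all with the full set of libraries.

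**Figure D2:**
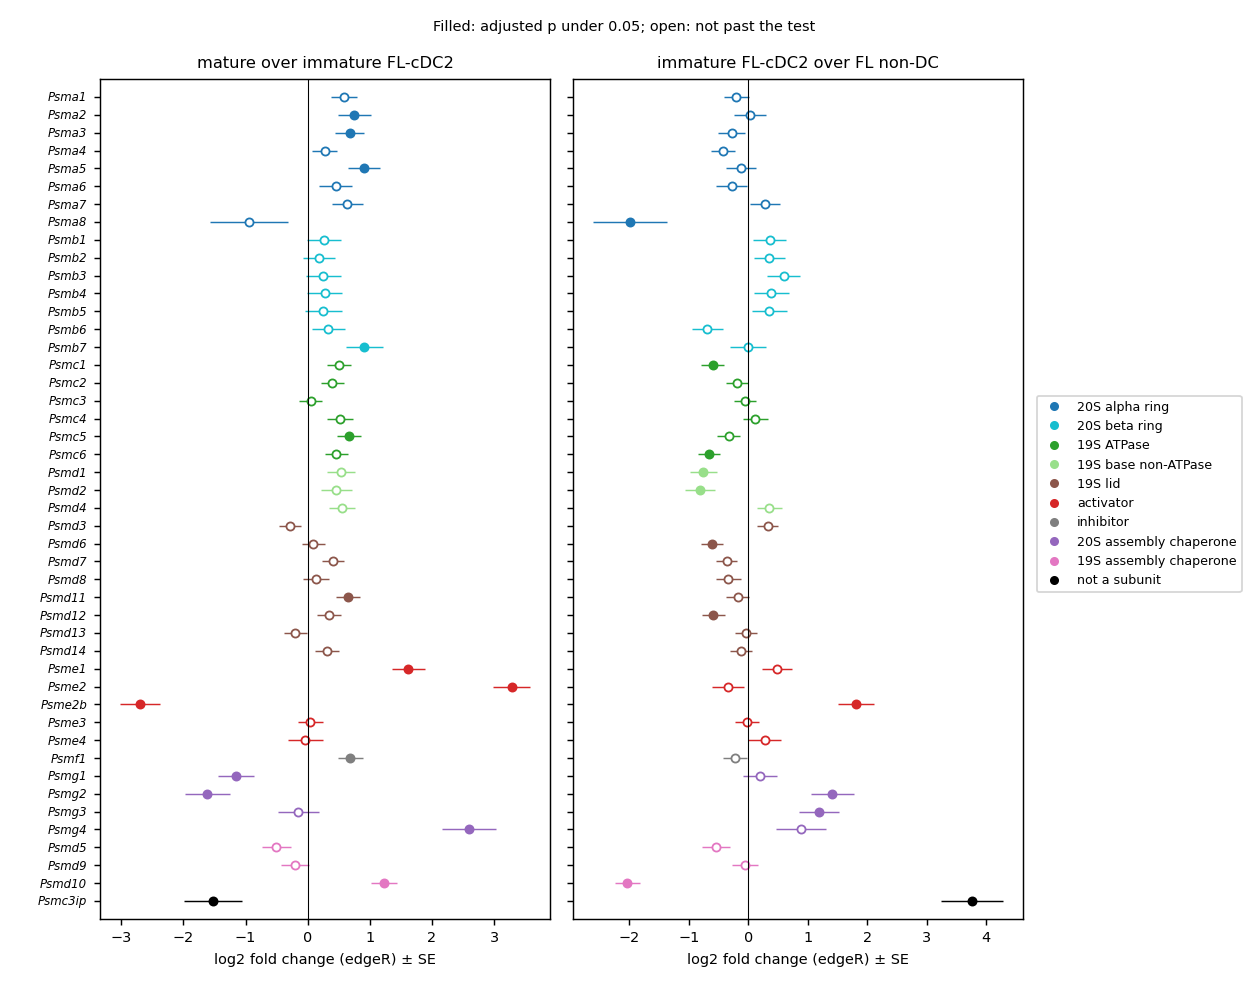
log2 fold change ± SE (x axis, edgeR) of each proteasome gene (y axis) for mature over immature FL-cDC2s (left) and immature FL-cDC2s over FL non-DCs (right), colored by role, with filled points for adjusted p under 0.05. On the left most 20S and 19S genes lie between 0 and 1, while Psme2 (3.28), Psmg4 (2.596) and Psme2b (-2.70) lie far outside.

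Psme2, the beta subunit of PA28, was 182 and 128 FPKM in immature FL-cDC2s and 934 and 1305 among mature FL-cDC2s. It was 147 and 106 FPKM in FL non-DCs, 359 and 631 in immature FL-cDC1s, 1055 in the mature FL-cDC1 library, 453 and 424 in GM-DCs, and 95.5 and 171 in GM-Macs. It was thus highest in both mature FL-cDC subsets, intermediate in immature FL-cDC1s and GM-DCs, and lowest in the remaining subsets, where libraries overlapped. The rise from immature to mature FL-cDC2s was 9.71-fold (log2 3.28 ± 0.29 SE, edgeR adjusted p = 7.1e-05). Psme1, the alpha subunit, was 181 and 124 FPKM in immature and 328 and 370 FPKM in mature FL-cDC2s. It was 84.9 and 56.0 FPKM in FL non-DCs, 266 and 411 in immature FL-cDC1s, 441 in the mature FL-cDC1 library, 290 and 235 in GM-DCs, and 79.3 and 93.8 in GM-Macs. FL non-DCs and GM-Macs shared the lowest range, and the immature FL-cDC1 libraries spanned most of the range of the mature FL-cDC2s. The rise in FL-cDC2s was 3.07-fold (log2 1.62 ± 0.26 SE, edgeR adjusted p = 0.00165). The subunits did not change in parallel: the level of Psme2 over that of Psme1 in the same library was 1.01 and 1.03 in immature FL-cDC2s and 2.85 and 3.53 among mature FL-cDC2s. Against the 20S median of the same library, a measure that library scaling does not touch, Psme2 was 1.47 and 1.40 times in immature and 10.97 and 11.35 times in mature FL-cDC2s. Of 10 interferon-stimulated genes, 7 were higher and 1 was lower in mature FL-cDC2s. Their summed level was 288 and 317 FPKM in immature and 1073 and 978 FPKM in mature FL-cDC2s. In FL non-DCs it was 402 and 405 FPKM, in immature FL-cDC1s 230 and 180, and in the mature FL-cDC1 library 780. GM-DCs had 416 and 436 FPKM and GM-Macs 109 and 98.3. From FL non-DCs to immature FL-cDC1s the sum was lower and Psme2 was higher. The part of the interferon-stimulated genes in the rise of PA28 was not tested.

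Psme2b, which resembles Psme2 in sequence, moved the opposite way. Psme2b is a copy of Psme2 on chromosome 11 (48945345 to 48946410, mm10), whereas Psme2 lies on chromosome 14 (55587440 to 55591101) beside Psme1 (55578494 to 55581527). Psme2b was 48.6 and 29.7 FPKM in immature FL-cDC2s, 3.93 and 5.02 among mature FL-cDC2s, 8.04 and 6.24 in FL non-DCs, 3.12 and 6.08 in immature FL-cDC1s, 4.75 in the mature FL-cDC1 library, 1.70 and 1.18 in GM-DCs, and 4.60 and 6.85 in GM-Macs. Immature FL-cDC2s therefore stood apart from all other libraries, and the fall on maturation was 6.48-fold (log2 -2.70 ± 0.32 SE, edgeR adjusted p = 0.000306). Its assignment is uncertain. Of the 50-base windows of its GENCODE vM21 transcript (837 bases), 68.7% occur identically in a Psme2 transcript, and how reads matching both were counted is not given in the sources used here. As a percentage of Psme2 in the same library, Psme2b was 26.7 and 23.2 in immature FL-cDC2s, 4.001 to 5.90 in FL non-DCs and GM-Macs, and 0.279 to 0.962 in the rest, so it did not follow Psme2 at a constant share. The gene also overlaps 9930111J21Rik1 by 261 bases, and 9930111J21Rik1 was 26.5 and 35.3 FPKM in immature FL-cDC2s and 0.915 to 11.5 FPKM elsewhere. The part of reads from either gene in the level of Psme2b was not tested. The remaining activators, the nuclear Psme3 (PA28 gamma) and the large Psme4 (PA200), were 30.7 to 102 and 2.04 to 5.83 FPKM over all libraries and did not pass the test in this comparison.

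**Figure D3:**
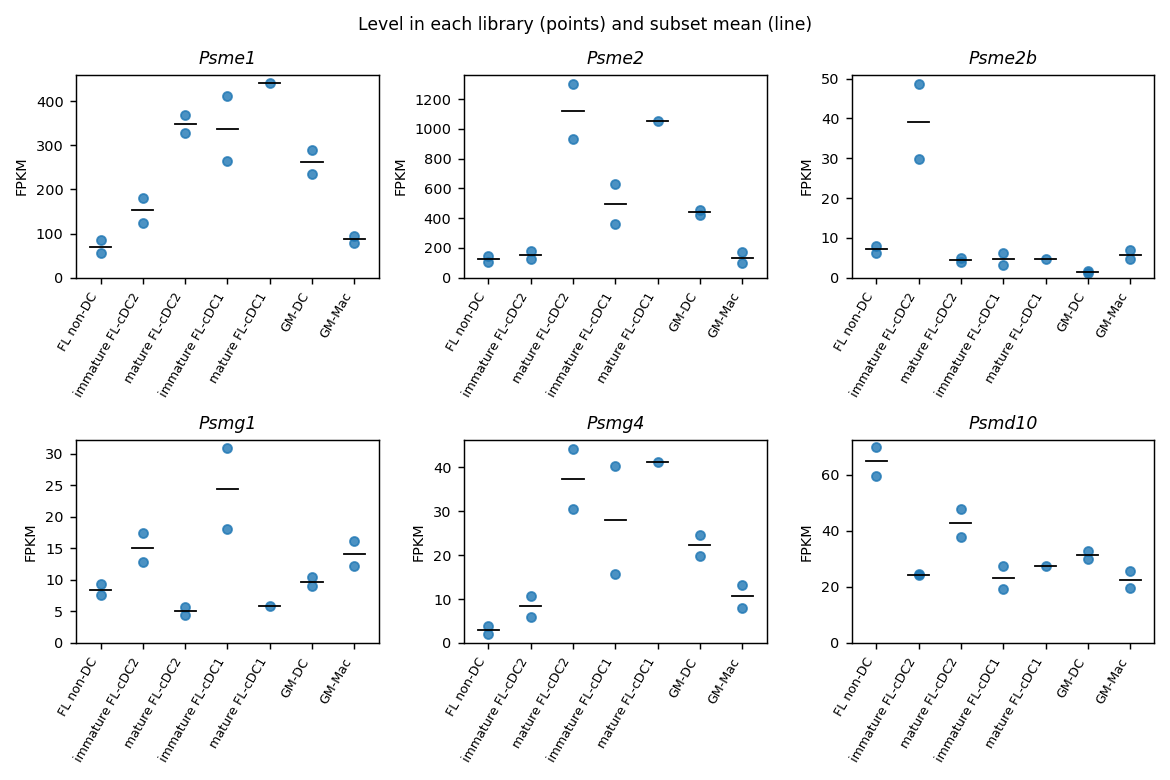
FPKM (y axis, from 0) of 6 genes in each library (points) of the 7 subsets (x axis), with the subset mean as a line. Psme1 and Psme2 are higher in both FL-cDC1 subsets, GM-DCs and mature FL-cDC2s than in the other subsets, Psme2b is high in immature FL-cDC2s alone, Psmg1 and Psmg4 run in opposite directions between immature and mature FL-cDC2s, and Psmd10 is highest in FL non-DCs.

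The chaperones of the 20S core also diverged. Psmg1 and Psmg2 form one chaperone pair that assembles the alpha ring, and Psmg3 and Psmg4 form another. Psmg4 was 10.8 and 5.86 FPKM in immature FL-cDC2s, 30.5 and 44.1 among mature FL-cDC2s, 3.87 and 1.99 in FL non-DCs, 15.6 and 40.4 in immature FL-cDC1s, 41.1 in the mature FL-cDC1 library, 24.6 and 19.8 in GM-DCs, and 8.04 and 13.1 in GM-Macs. The mature FL-cDC libraries were high and the FL non-DCs low, with immature FL-cDC1s divided between their 2 libraries. The rise from immature to mature FL-cDC2s was 6.05-fold (log2 2.596 ± 0.43 SE, edgeR adjusted p = 0.0018). Psmg1 and Psmg2 were looked at in each library after their values had been seen. Psmg1 was 17.4 and 12.8 FPKM in immature and 4.43 and 5.72 FPKM in mature FL-cDC2s, a 2.22-fold fall (log2 -1.15 ± 0.29 SE, edgeR adjusted p = 0.013) that missed the threshold without immature FL-cDC2 replicate 1 (adjusted p = 0.052) or mature FL-cDC2 replicate 1 (adjusted p = 0.0643). Psmg2 was 28.5 and 19.4 FPKM in immature and 4.32 and 7.27 FPKM in mature FL-cDC2s, a 3.07-fold fall (log2 -1.62 ± 0.36 SE, edgeR adjusted p = 0.00809). Psmg3, the partner of Psmg4, was 20.4 and 15.0 against 8.75 and 14.9 FPKM and did not pass the test. The level of Psmg4 over that of Psmg3 was 0.528 and 0.392 in immature and 3.49 and 2.96 among mature FL-cDC2s, so the 2 members of this pair were not in a fixed ratio. The same ratio was 0.582 and 0.803 in immature FL-cDC1s, 2.27 in the mature FL-cDC1 library, 2.03 and 1.48 in GM-DCs, and 1.00 and 0.829 in GM-Macs. In the same comparison all 10 listed proliferation genes were lower in mature FL-cDC2s. Their sums were 1731 and 1896 FPKM in immature and 149 and 154 FPKM in mature FL-cDC2s, and 88.0 to 177 FPKM in FL non-DCs, GM-DCs and GM-Macs. In the last 3 subsets Psmg1 was 0.08365 to 0.156 times the 20S median. It was 0.140 and 0.141 times in immature and 0.0521 and 0.0497 times in mature FL-cDC2s. Psmg2 was 0.0815 to 0.144 times in those 3 subsets, 0.229 and 0.212 times in immature and 0.0507 and 0.0633 times in mature FL-cDC2s. The part of proliferation was not tested.

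Among the base chaperones, Psmd10 (gankyrin), on the X chromosome (140948425 to 140956711), was 24.5 and 24.3 FPKM in immature FL-cDC2s, 37.6 and 47.7 among mature FL-cDC2s, 69.9 and 59.6 in FL non-DCs, 19.2 and 27.3 in immature FL-cDC1s, 27.6 in the mature FL-cDC1 library, 30.0 and 32.9 in GM-DCs, and 19.5 and 25.6 in GM-Macs. FL non-DCs were the highest and mature FL-cDC2s the next, with no overlap between them. It rose 2.34-fold on maturation of FL-cDC2s (log2 1.23 ± 0.20 SE, edgeR adjusted p = 0.00177). Its locus overlaps Atg4a by 2867 bases. Atg4a was 1.62 and 1.60 FPKM in FL non-DCs and 0.239 to 0.855 FPKM elsewhere, and the part of its reads in the level of Psmd10 was not tested. The other base chaperones, Psmd5 and Psmd9, were 63.6 and 88.7 against 37.9 and 42.7 FPKM, and 10.9 and 10.3 against 6.28 and 7.52 FPKM, in immature against mature FL-cDC2s, and neither passed the test.

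The core and cap subunits that passed did so by smaller margins. Psma5 of the alpha ring was 74.3 and 60.6 FPKM in immature FL-cDC2s, 74.4 and 113 among mature FL-cDC2s, 54.1 and 40.9 in FL non-DCs, 115 and 194 in immature FL-cDC1s, 124 in the mature FL-cDC1 library, 79.6 and 74.6 in GM-DCs, and 46.2 and 64.2 in GM-Macs. On the FPKM scale its immature and mature FL-cDC2 libraries nearly touched, and the test gave a 1.87-fold rise (log2 0.90 ± 0.26 SE, edgeR adjusted p = 0.022). Psmb7 rose 1.88-fold (log2 0.91 ± 0.30 SE, edgeR adjusted p = 0.0375), although its FPKM ranges overlapped. The ATPase Psmc5 was 97.02 and 97.9 FPKM in immature FL-cDC2s, 103 and 128 among mature FL-cDC2s, 80.5 and 77.9 in FL non-DCs, 103 and 108 in immature FL-cDC1s, 100.1 in the mature FL-cDC1 library, 63.9 and 73.1 in GM-DCs, and 45.1 and 59.0 in GM-Macs. GM-Macs were lowest, and the rise in FL-cDC2s was 1.59-fold (log2 0.67 ± 0.19 SE, edgeR adjusted p = 0.024). The lid subunit Psmd11 was 102 and 110 FPKM in immature FL-cDC2s, 114 and 135 among mature FL-cDC2s, and 70.7 to 108 FPKM over the other 9 libraries, and its rise was 1.57-fold (log2 0.65 ± 0.19 SE, edgeR adjusted p = 0.0254). Psmf1, the proteasome inhibitor PI31, was 13.1 and 15.8 FPKM in immature and 16.7 and 18.2 FPKM in mature FL-cDC2s and 9.48 to 17.7 FPKM elsewhere, and its rise was 1.61-fold (log2 0.68 ± 0.20 SE, edgeR adjusted p = 0.0253). Psma2 and Psma3 also passed, with log2 fold changes of 0.75 and 0.67. With library size alone, none of these 7 genes (Psma2, Psma3, Psma5, Psmb7, Psmc5, Psmd11, Psmf1) passed, with log2 fold changes of 0.23 to 0.48 and edgeR adjusted p of 0.16 to 0.384. Without mature FL-cDC2 replicate 2 none of the 7 passed either (adjusted p of 0.0884 to 0.27). Without immature FL-cDC2 replicate 1 the 6 other than Psmb7 missed the threshold (0.0506 to 0.123), without immature FL-cDC2 replicate 2 the 5 other than Psmd11 and Psmf1 did (0.0504 to 0.177), and without mature FL-cDC2 replicate 1 Psmf1 did (0.0528), all by edgeR. The summed FPKM of the 16 20S genes was 1755 and 1315 in immature and 1301 and 1856 among mature FL-cDC2s, and that of 17 subunits of the 19S particle was 1865 and 1886 against 1704 and 1906. Both sums overlapped between the groups. On CPM with TMM scaling over all 13 libraries they did not. They were 1390 and 1132 against 1423 and 2032 for the 20S genes, a narrow gap. For the 19S particle they were 2489 and 2815 against 3216 and 3455. The test took its TMM factors from the 6 cDC2-gated libraries alone.

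Psmc3ip shares the symbol pattern but encodes a factor of meiotic recombination and is no proteasome subunit. It was 11.7 and 8.42 FPKM in immature FL-cDC2s, 2.00 and 3.18 among mature FL-cDC2s, 0.665 and 0.281 in FL non-DCs, 7.64 and 11.8 in immature FL-cDC1s, 2.23 in the mature FL-cDC1 library, 0.780 and 0.938 in GM-DCs, and 0.414 and 0.853 in GM-Macs. Its 4 highest libraries, both of immature FL-cDC2s and both of immature FL-cDC1s, had the highest summed proliferation genes (1009 to 1896 FPKM, beside 88.0 to 373 FPKM in the others). Whether Psmc3ip followed proliferation was not tested. It fell 2.87-fold on maturation of FL-cDC2s (log2 -1.52 ± 0.46 SE, edgeR adjusted p = 0.0281), and without immature FL-cDC2 replicate 1 or mature FL-cDC2 replicate 1 the adjusted p was 0.0993 and 0.131.

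Promoters of the genes with the clearest changes were compared for short motifs. RefSeq promoter windows (GRCm38.p6, 250 bases before to 50 after the start) were at hand for 39 of the 47 genes, and both strands were searched. A pair of GAAA separated by any 2 bases, the repeat found in interferon-response elements, occurred in Psme1, Psmg4, Psmb3, Psmd4 and Psmd9, which is 5 of 39 genes (12.8%) beside 3.99% of 27025 genes with a window. CCGGAAG, the core bound by ETS factors, occurred in 15 of 39 (38.5%) beside 9.93% of all genes. TGANNNNGC, the core of antioxidant-response elements, occurred in 22 of 39 (56.4%) beside 45% of all genes, and CCAAT in 14 of 39 (35.9%) beside 41.1%. The following windows run from 100 bases before to 30 bases after the start and are shown for Psme1 and Psmg4, which rose on maturation and hold the interferon-type repeat, for Psme2, which rose most and does not hold it in either of its 2 windows, for Psmg1, which fell, and for Psmd10 and the catalytic subunit Psmb5. Capitals mark the GAAA pair or its reverse complement in Psme1 and Psmg4, CCGGAAG in Psmg1, CCAAT on the reverse strand in Psmd10, and TGANNNNGC in Psmb5. Other matches were left in lower case, namely TGANNNNGC in Psme2, in the strand as printed, from base 14 to base 22 after the start, and in Psmg4 on the reverse strand.
Psme1 (chr14:55578394-55578523, plus strand): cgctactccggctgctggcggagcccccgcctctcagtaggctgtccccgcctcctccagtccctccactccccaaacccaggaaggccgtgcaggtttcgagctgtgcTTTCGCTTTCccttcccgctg
Psmg4 (chr13:34162864-34162993, plus strand): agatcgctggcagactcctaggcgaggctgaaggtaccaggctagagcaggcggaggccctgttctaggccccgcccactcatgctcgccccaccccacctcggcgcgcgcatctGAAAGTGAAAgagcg
Psme2 (chr14:55591072-55591201, minus strand): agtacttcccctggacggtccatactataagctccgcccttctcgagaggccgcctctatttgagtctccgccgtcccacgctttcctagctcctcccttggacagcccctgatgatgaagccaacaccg
Psmg1 (chr16:95990931-95991060, minus strand): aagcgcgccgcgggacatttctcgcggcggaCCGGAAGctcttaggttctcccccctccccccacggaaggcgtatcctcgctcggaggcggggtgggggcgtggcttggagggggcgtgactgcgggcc
Psmd10 (chrX:140956682-140956811, minus strand): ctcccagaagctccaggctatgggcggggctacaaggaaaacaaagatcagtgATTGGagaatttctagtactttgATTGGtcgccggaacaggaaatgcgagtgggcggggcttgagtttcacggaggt
Psmb5 (chr14:54617966-54618095, minus strand): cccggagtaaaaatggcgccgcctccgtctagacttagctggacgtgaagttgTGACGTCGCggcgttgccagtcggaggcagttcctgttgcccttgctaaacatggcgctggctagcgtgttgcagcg
The repeat lay just after the start in both genes, from base 10 in Psme1, on the reverse strand, and from base 16 in Psmg4, where it overlapped a TGANNNNGC match at base 21. Of the other 3 holders, Psmb3, Psmd4 and Psmd9 did not pass the test on maturation of FL-cDC2s. A match describes these letters and is not evidence of binding.

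Related genes of the ubiquitin-proteasome pathway that are not in the set were counted beside it. Of 34, 13 were higher (38.2%) beside 22.5% of all genes and 2 lower (5.88%) beside 24% on maturation of FL-cDC2s, and with library size alone 4 were higher and 4 lower. The largest changes past the test were those of Nfe2l1, a transcription factor that drives proteasome genes, with 16.1 and 13.9 FPKM in immature and 86.7 and 54.7 FPKM in mature FL-cDC2s (log2 2.67 ± 0.27 SE, edgeR adjusted p = 0.00014), the unfoldase Vcp (log2 1.49, adjusted p = 0.00152), the immunoproteasome genes Psmb8 (log2 1.44, adjusted p = 0.00359) and Psmb9 (log2 1.27, adjusted p = 0.0132), the Vcp cofactor Nploc4 (log2 1.00, adjusted p = 0.00959) and the immunoproteasome gene Psmb10 (log2 1.00, adjusted p = 0.0253). Uchl5, a deubiquitinase of the 19S particle, and Zfand5 were the 2 that fell, by 0.66 and 0.68 on the log2 scale. Nfe2l1 was also higher in the mature FL-cDC1 library than in immature FL-cDC1s (log2 3.58 ± 0.51 SE). In that comparison the median log2 fold change of the proteasome genes was -0.37. The part of Nfe2l1 in the levels of the proteasome genes was not tested.

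Immature FL-cDC2s and FL non-DCs, which share the cDC2 gate, were compared next. Psmc3ip, Psme2b and 2 of the 4 chaperones of the 20S core (Psmg2, Psmg3) were higher in immature FL-cDC2s, and Psmd10, Psma8 and 6 subunits of the 19S particle were lower. Of the 46 genes, 4 were higher (8.70%) beside 23.6% of all genes, and 8 were lower (17.4%) beside 24%. This balance depended on the scaling, since with library size alone, where the median of all genes was 0.64, 21 were higher (42.4% of all genes) and 1 was lower (14.1%). Psmc3ip was 13.5-fold higher (log2 3.76 ± 0.52 SE, edgeR adjusted p = 0.000844), and all 10 proliferation genes were higher too. The part of proliferation in this difference was not tested. Psmd10 was 4.09-fold lower (log2 -2.03 ± 0.21 SE, edgeR adjusted p = 0.000184) and was also lower with library size alone. Psme2b was 3.52-fold higher (adjusted p = 0.00222), Psmg2 2.66-fold (adjusted p = 0.0144) and Psmg3 2.29-fold (adjusted p = 0.0205), all in edgeR. Psmg2 missed the threshold without FL non-DC replicate 2 (adjusted p = 0.0993) or immature FL-cDC2 replicate 1 (0.0671), and Psmg3 without either of them (0.097 and 0.0812) or without FL non-DC replicate 1 (0.084). The 7 other lower genes were Psma8, Psmc1, Psmc6, Psmd1, Psmd2, Psmd6 and Psmd12. Those other than Psma8 were lower by 0.59 to 0.81 on the log2 scale with an adjusted p of 0.0196 to 0.041, and for Psmc1, Psmd6 and Psmd12 the sign turned with library size alone (log2 0.03 to 0.04). Without FL non-DC replicate 1, FL non-DC replicate 2 or immature FL-cDC2 replicate 1, fewer genes were lower and fewer were higher. Fewer of all genes were called in each of these fits. Transcripts under 1000 bases had a median log2 difference of 0.46 between these subsets and those of at least 3000 bases one of -0.05. With the length correction 14 genes were lower, while the number of all genes called in either direction went from 6309 to 6883.

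Between mature FL-cDC2s and FL non-DCs, 12 of the 46 genes were higher (26.1%) beside 26.4% of all genes, and 6 were lower (13%) beside 27.1%. With library size alone 19 were higher (32% of all genes) and 3 lower (23.1%), the median of all genes being 0.28. The median log2 difference was 0.42 for transcripts under 1000 bases and -0.003 for those of at least 3000 bases. Among the higher genes Psmg4 differed most, with an 11.2-fold higher level (log2 3.48 ± 0.45 SE, edgeR adjusted p = 0.000461), followed by Psme2 with 7.69-fold (log2 2.94 ± 0.29 SE, edgeR adjusted p = 0.000105), Psmc3ip with 4.71-fold (log2 2.24 ± 0.50 SE, edgeR adjusted p = 0.00693) and Psme1 with 4.29-fold (log2 2.101 ± 0.27 SE, edgeR adjusted p = 0.000414). The ubiquitin receptor Psmd4 was 1.88-fold higher (adjusted p = 0.00775 in edgeR), and its call was lost without FL non-DC replicate 2 (adjusted p = 0.0949). Psmd10 was 1.75-fold lower (adjusted p = 0.0109) and Psmd5 2.08-fold lower (adjusted p = 0.00682) in edgeR, while the remaining base chaperone, Psmd9, did not pass (log2 -0.25 ± 0.22 SE, adjusted p = 0.372). The call of Psmd10 was lost without FL non-DC replicate 1 (adjusted p = 0.101) or mature FL-cDC2 replicate 1 (0.0599), and those of Psmd5 and Psma8 without FL non-DC replicate 2 (0.0526 and 0.0684). The largest fall was that of the weakly expressed Psma8 (log2 -2.93 ± 0.65 SE, edgeR adjusted p = 0.00681), which was 0.945 and 1.86 FPKM in FL non-DCs, 0.487 and 0.600 in immature FL-cDC2s, 0.116 and 0.2996 among mature FL-cDC2s, 0.434 and 0.687 in immature FL-cDC1s, 0.0731 in the mature FL-cDC1 library, 1.18 and 1.11 in GM-DCs, and 1.60 and 1.82 in GM-Macs. Fewer genes were called higher without FL non-DC replicate 1, FL non-DC replicate 2 or mature FL-cDC2 replicate 2. Fewer were called lower without either FL non-DC replicate or mature FL-cDC2 replicate 1. Fewer of all genes were called in each of these fits.

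In GM-BM cultures the same question was put to GM-DCs and GM-Macs. Psme1 was 2.54-fold higher in GM-DCs (log2 1.35 ± 0.32 SE, edgeR adjusted p = 0.0313), and Psme2, at 453 and 424 against 95.5 and 171 FPKM, did not overlap but missed the threshold (adjusted p = 0.0517 in edgeR). Psme2b was 4.74-fold lower (log2 -2.24 ± 0.51 SE, edgeR adjusted p = 0.0272). These were the calls among the 46 genes, 1 higher (2.17%) beside 8.71% of 13083 genes and 1 lower beside 10.6%, and with library size alone, where the median of all genes was 0.19, 2 were higher (10.6% of all genes) and 1 lower (8.22%). Along transcript length the median log2 difference was -0.25 under 1000 bases and 0.21 from 3000 bases. With the length correction 7 genes were higher, while the number of all genes called in either direction went from 2528 to 3184. Neither the call of Psme1 nor that of Psme2b held without GM-DC replicate 1 (adjusted p = 0.228 and 0.056) or replicate 2 (adjusted p = 0.106 and 0.121), and that of Psme2b was also lost without GM-Mac replicate 2 (adjusted p = 0.0588). Without either GM-Mac replicate more genes were higher, and more of all genes were called.

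FL non-DCs were set against GM-Macs as the subsets of both cultures with high macrophage genes. Of the 46 genes 8 were higher in FL non-DCs (17.4%) beside 9.29% of 14936 genes. Psmd10 led with a 3.17-fold difference (log2 1.66 ± 0.31 SE, edgeR adjusted p = 0.00582), and the others were the ATPases Psmc1, Psmc2 and Psmc3, the scaffold Psmd1, the lid subunit Psmd12, the chaperone Psmd5 and the activator Psme3, with log2 fold changes of 0.71 to 1.21 and edgeR adjusted p of 0.00866 to 0.0436. By edgeR 0 genes were lower, beside 11.2% of all genes, with 3 at an unadjusted p below 0.05, while DESeq2 called 1 lower and limma 2. Of all genes, edgeR called 3057 in either direction, DESeq2 4283, and limma 3212 and 3392 with the larger and the smaller pseudocount. With library size alone 3 were higher (6.26% of all genes) and 1 lower (13.2%), at a median of all genes of -0.25. Psmd10 was the one gene of the 8 that passed under every alternative tried. Fewer genes were higher when any single library of these subsets was left out. Without either FL non-DC replicate or GM-Mac replicate 2, fewer of all genes were called too. Leaving out 1 library moved the log2 fold change of Psmd10 between 1.41 and 1.95, and that of Psmc3 between 0.59 and 0.83. These subsets differed along transcript length, with a median log2 difference of -0.81 for transcripts under 1000 bases and 0.24 for those of at least 3000 bases. With a length correction 19 genes were higher, and 4277 of all genes were called in either direction.

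In FL-cDC1s, 1 library of mature cells was compared with 2 of immature cells in the fit of all 13 libraries, so the mature library is assumed to vary like the others. Psmg1 fell as it did in FL-cDC2s, from 18.0 and 30.9 FPKM in immature to 5.90 FPKM in the mature FL-cDC1 library (log2 -2.16 ± 0.51 SE, edgeR adjusted p = 0.0148), and this call held under every alternative tried. Psmg2 fell from 20.3 and 31.1 to 7.04 FPKM (log2 -1.97 ± 0.55 SE, edgeR adjusted p = 0.0303), with an adjusted p of 0.0986 without immature FL-cDC1 replicate 2. With Psma8 (log2 -2.85 ± 0.91 SE, edgeR adjusted p = 0.0485, and 0.122 without immature FL-cDC1 replicate 2), 3 genes were lower (6.52%) beside 8.28% of all genes, and 0 were higher by edgeR, also before adjustment (p under 0.05), and in DESeq2 and limma, beside 12.6% of all genes. Without immature FL-cDC1 replicate 1 more genes were lower, and without replicate 2 fewer were. The number of all genes called moved the same way. Psme2 was 359 and 631 FPKM in immature and 1055 FPKM in the mature FL-cDC1 library and did not pass the test. These subsets too differed along transcript length, with medians of -0.94 under 1000 bases and 0.21 from 3000 bases (log2). With the length correction 6 genes were higher and 5 lower, while the number of all genes called in either direction went from 3120 to 4140.

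An interaction term asked whether a gene responded differently to maturation in the cDC2 and cDC1 lineages. Psme2b alone passed, 1 of 46 (2.17%) beside 5% of all genes called lower, with a difference of log2 -2.66 ± 0.69 SE (edgeR adjusted p = 0.0497), since it fell in FL-cDC2s and was 3.12 and 6.08 against 4.75 FPKM in FL-cDC1s. The call was lost without either immature FL-cDC2 replicate (adjusted p = 0.145 and 0.0719), either mature FL-cDC2 replicate (0.148 and 0.111) or immature FL-cDC1 replicate 1 (0.0712), and without the filter on low counts (0.0507), in each case as edgeR's adjusted p. By edgeR 0 genes were called higher, beside 1.03% of all genes, with 7 at an unadjusted p below 0.05, while DESeq2 called 3, limma 0 and the length correction 2. Of all genes, edgeR called 901 in either direction, DESeq2 1817 and the length correction 1260. Without immature FL-cDC1 replicate 1 more were called higher, and more of all genes were called.

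The immature subsets differed most in the 20S core. Against immature FL-cDC1s, 20 of the 46 genes were lower in immature FL-cDC2s (43.5%) beside 8.9% of all genes, and 1 was higher (2.17%) beside 11.4%. The lower genes included 7 of 8 alpha genes and all 7 beta genes tested, with log2 fold changes of -1.15 to -2.52, and none of the 6 ATPases was called. Among the lower genes Psmb7 differed most (log2 -2.52 ± 0.40 SE, edgeR adjusted p = 0.00216). Psme2b was the higher gene (log2 2.58 ± 0.47 SE, edgeR adjusted p = 0.0044), and both kept their call under every alternative tried, whereas Psme2 (log2 -2.17 ± 0.43 SE, adjusted p = 0.0067) and Psme1 (log2 -1.64 ± 0.34 SE, adjusted p = 0.0088) were lower in edgeR. Both missed the threshold without immature FL-cDC2 replicate 2 (adjusted p = 0.0668 for Psme2 and 0.0822 for Psme1), and Psme1 also without immature FL-cDC1 replicate 2 (0.0545). With library size alone 10 were lower (4.56% of all genes) and 2 higher (19.4%), the median of all genes being 0.46. The count rested on single libraries, and the number of all genes called moved in the same direction when a library was left out. Leaving out 1 library moved the log2 fold change of Psmb7 between -2.97 and -1.93. That of Psmb4 moved between -1.63 and -0.59. Transcripts under 1000 bases had a median log2 difference of -1.23 between these subsets and those of at least 3000 bases one of 0.41, beside -1.44 for the 14 20S genes. With a length correction 17 were lower, while the number of all genes called in either direction went from 3034 to 3232.

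**Figure D4:**
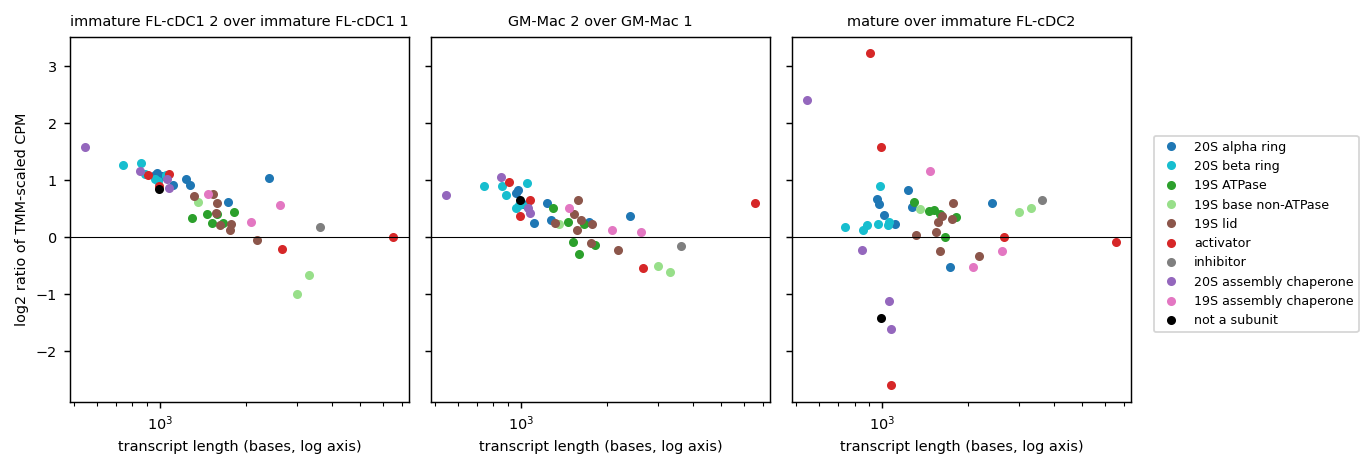
log2 ratio of TMM-scaled CPM (y axis) of each proteasome gene against its transcript length in bases, as implied by reads and FPKM (x axis, log scale), colored by role, for replicate 2 over 1 of immature FL-cDC1s, replicate 2 over 1 of GM-Macs, and mature over immature FL-cDC2s. In both replicate pairs the short 20S genes lie above 0 and the long Psmd1 and Psmd2 below, while in the third panel the genes that differ most, Psme2, Psmg4, Psmg2 and Psme2b, have lengths of 547 to 1076 bases.

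Mature FL-cDC2s were last compared with GM-DCs, the other culture's cells with high genes of mature dendritic cells. Of the 46 genes 3 were higher in mature FL-cDC2s (6.52%) beside 7.75% of all genes, namely Psme2b (log2 1.78 ± 0.46 SE, adjusted p = 0.0213), Psme2 (log2 1.51 ± 0.42 SE, adjusted p = 0.0287) and Psmc5 (log2 0.91 ± 0.25 SE, adjusted p = 0.0288) in edgeR. The 2 lower genes (4.35%, beside 12.9% of all genes) were Psma8 (log2 -2.27 ± 0.64 SE, adjusted p = 0.0304) and Psma6 (log2 -1.42 ± 0.38 SE, adjusted p = 0.0235). Psma6, shown here after its values had been seen, was 311 and 277 FPKM in GM-DCs and 80.0 and 116 FPKM in mature FL-cDC2s, and 2.57 and 3.19 times the 20S median in GM-DCs against 0.771 to 1.56 times in all other libraries. None of these calls held in edgeR without any one of the 4 libraries compared, and fewer of all genes were called too. Transcripts under 1000 bases had a median log2 difference of -0.16 between these subsets and those of at least 3000 bases one of -0.02. With the length correction 20 were higher and 5 lower, while the number of all genes called in either direction went from 3079 to 4398.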

How the data were processed

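RNA was amplified with the SMART-Seq v4 low-input kit, which carries no molecular identifiers, and 13 libraries were sequenced. The authors deposited, per gene, raw read counts and FPKM. The submitters' processing notes list, without roles, mm10 and the tools STAR 2.6.0c, HTSeq, StringTie 1.3.4d, Trimmomatic and bcl2fastq 2.20.0, and the study's methods name HISAT 2.1.0 as aligner. Which aligner made the files, and whether counting used strand, is not given in the sources used here. From the deposited counts, edgeR 4.0.16 (R 4.3.3; filterByExpr, TMM, quasi-likelihood test, Benjamini-Hochberg over all genes, threshold 0.05) gave the fold changes, with SE as the absolute log2 fold change over the root of F. The 3 cDC2-gated subsets (6 libraries) and the GM-BM subsets (4 libraries) were fitted apart, and other comparisons used all 13 libraries. Levels are FPKM, which are scaled by library size, whereas tests are TMM-scaled, so folds differ from FPKM ratios. The tests treat reads as independent molecules.

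Alternatives were library size alone, no filter, DESeq2 1.42.0, limma 3.58.1 on log2(FPKM + 1) and log2(FPKM + 0.1) for genes with a subset mean of at least 1 FPKM, all 13 libraries, a replicate block, leaving out each library, and, chosen after seeing the data, an offset for the transcript length implied by counts and FPKM. Role sums used FPKM or TMM-scaled CPM. The fits were also run on simulated counts with a common spread and no trend along transcript length, which cannot show how such trends affect the calls. Values are given in every library for Psmb5, Psmb6, Psmb7, Psme1, Psme2, for the gene of each role with the largest change past the test, without overlap, on maturation of FL-cDC2s, and for the largest rise and fall in each comparison. For Psmd11 and Psmf1 the libraries other than those of immature and mature FL-cDC2s are given as a range. The genes, lists and rules were chosen with earlier results of these data known. Coordinates and promoters are from RefSeq (GRCm38.p6, the mm10 build), to which all 47 genes matched. Of the 47 genes, 14 overlap another annotated gene. Promoters of Psma8, Psmb1, Psmb2, Psmb7, Psmc3, Psmd3, Psmd7 and Psmg2 were not used here.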

Additional observations from a re-analysis of the deposited data

Results flagged for a closer look

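The change of Psme2b on maturation differed between FL-cDC2s and FL-cDC1s by a test of the difference itself, with log2 -2.66 (SE 0.69, edgeR adjusted p = 0.0497), beside 5% of all genes called lower by this test. The call was lost without any one of 5 libraries (adjusted p of 0.0712 to 0.148) and without the filter on low counts (0.0507). Psme2b was 48.6 and 29.7 FPKM in immature and 3.93 and 5.02 FPKM in mature FL-cDC2s, and 3.12 and 6.08 in immature against 4.75 FPKM in mature FL-cDC1s, the last from 1 library. Its transcript shares 68.7% of its 50-base windows with Psme2, and its locus overlaps 9930111J21Rik1 by 261 bases. No subset had enough libraries to be examined for a single outlying value.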

How the results depend on the processing

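Of 85 fold changes past the test, 17 kept their call under every alternative tried and 41 under every alternative that used all libraries. Of their 974 values under alternatives, 630 kept direction and call, 335 kept the direction and missed the threshold, and 9 turned. The 9 were log2 values of Psmc1 (0.0298, 0.0229, 0.023), Psmd6 (0.0275, 0.0213, 0.0215) and Psmd12 (0.0403, 0.0272, 0.0275) for immature FL-cDC2s over FL non-DCs, under library size alone and under limma with the larger and the smaller pseudocount, in this order, all of which scale by library size. With 2 libraries a subset, and 1 of mature FL-cDC1s, a gene that missed the threshold is not shown to be equal between subsets, and bulk libraries cannot separate fewer cells of a kind from less RNA per cell.

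The proteasome genes called higher and lower in the report numbered 11 and 4 in mature over immature FL-cDC2s, 4 and 8 in immature FL-cDC2s over FL non-DCs, 12 and 6 in mature FL-cDC2s over FL non-DCs, 1 and 1 in GM-DCs over GM-Macs, 8 and 0 in FL non-DCs over GM-Macs, 0 and 3 in mature over immature FL-cDC1s, 0 and 1 in the interaction, 3 and 2 in mature FL-cDC2s over GM-DCs, 1 and 20 in immature FL-cDC2s over immature FL-cDC1s. Counts that an alternative moved by more than 1.5 times in either direction were as follows. With library size alone they were 4 higher and 7 lower in mature over immature FL-cDC2s, 21 higher and 1 lower in immature FL-cDC2s over FL non-DCs, 19 higher and 3 lower in mature FL-cDC2s over FL non-DCs, 2 higher and 1 lower in GM-DCs over GM-Macs, 3 higher and 1 lower in FL non-DCs over GM-Macs, and 2 higher and 10 lower in immature FL-cDC2s over immature FL-cDC1s. Without the filter they were 2 higher and 1 lower in GM-DCs over GM-Macs, and 0 higher and 0 lower in the interaction. DESeq2 gave 20 higher and 4 lower in mature over immature FL-cDC2s, 2 higher and 1 lower in GM-DCs over GM-Macs, 11 higher and 1 lower in FL non-DCs over GM-Macs, 0 higher and 6 lower in mature over immature FL-cDC1s, 3 higher and 1 lower in the interaction, and 9 higher and 2 lower in mature FL-cDC2s over GM-DCs. limma on log2(FPKM + 1) gave 4 higher and 8 lower in mature over immature FL-cDC2s, 23 higher and 2 lower in immature FL-cDC2s over FL non-DCs, 19 higher and 4 lower in mature FL-cDC2s over FL non-DCs, 3 higher and 1 lower in GM-DCs over GM-Macs, 8 higher and 2 lower in FL non-DCs over GM-Macs, and 2 higher and 12 lower in immature FL-cDC2s over immature FL-cDC1s. limma on log2(FPKM + 0.1) gave 4 higher and 8 lower in mature over immature FL-cDC2s, 23 higher and 2 lower in immature FL-cDC2s over FL non-DCs, 19 higher and 4 lower in mature FL-cDC2s over FL non-DCs, 3 higher and 1 lower in GM-DCs over GM-Macs, 8 higher and 2 lower in FL non-DCs over GM-Macs, 0 higher and 5 lower in mature over immature FL-cDC1s, and 2 higher and 12 lower in immature FL-cDC2s over immature FL-cDC1s. The transcript length offset, chosen after seeing the data, gave 21 higher and 4 lower in mature over immature FL-cDC2s, 4 higher and 14 lower in immature FL-cDC2s over FL non-DCs, 7 higher and 1 lower in GM-DCs over GM-Macs, 19 higher and 0 lower in FL non-DCs over GM-Macs, 6 higher and 5 lower in mature over immature FL-cDC1s, 2 higher and 1 lower in the interaction, and 20 higher and 5 lower in mature FL-cDC2s over GM-DCs. A fit of all 13 libraries gave 4 higher and 3 lower in mature over immature FL-cDC2s, 3 higher and 2 lower in immature FL-cDC2s over FL non-DCs, 5 higher and 2 lower in mature FL-cDC2s over FL non-DCs, and 2 higher and 1 lower in GM-DCs over GM-Macs. For the interaction, all genes called numbered 901 in the report, 1817 by DESeq2, and 1518 and 1455 by limma with the larger and the smaller pseudocount.

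The replicate numbers were given for 6 subsets. The correlation of replicate differences between subsets ran from -0.485 to 0.692 over 15 pairs of subsets. In most of these subsets the replicate differences also followed transcript length. These correlations therefore cannot decide whether libraries with the same number were prepared together. With a replicate block the counts were 6 higher and 3 lower in mature over immature FL-cDC2s, 4 higher and 4 lower in immature FL-cDC2s over FL non-DCs, 6 higher and 3 lower in mature FL-cDC2s over FL non-DCs, and 2 higher and 1 lower in GM-DCs over GM-Macs.

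Leaving out 1 library at a time gave these ranges of proteasome genes higher, proteasome genes lower and all genes called. For mature over immature FL-cDC2s they were 4 to 11, 2 to 4 and 4851 to 5311. For immature FL-cDC2s over FL non-DCs they were 2 to 4, 1 to 6 and 3851 to 5749. For mature FL-cDC2s over FL non-DCs they were 4 to 13, 1 to 5 and 4721 to 5916. For GM-DCs over GM-Macs they were 0 to 4, 0 to 1 and 1599 to 4264. For FL non-DCs over GM-Macs they were 1 to 5, 0 to 2 and 752 to 3076. For mature over immature FL-cDC1s they were 0 to 0, 1 to 8 and 2140 to 3560. For the interaction they were 0 to 2, 0 to 1 and 468 to 1022. For mature FL-cDC2s over GM-DCs they were 0 to 0, 0 to 0 and 1582 to 1819. For immature FL-cDC2s over immature FL-cDC1s they were 1 to 1, 1 to 24 and 1292 to 3568.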
